A study of Mus musculus with 30 samples.

Results

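The genes that make coenzyme Q were described across 3 groups of single mouse blastocysts. They were chosen by the signal of Coq3, which was lower in twin embryos of both media than in undivided controls, so the differences of these genes from controls are given as a description, with no p-value. How many of them crossed the threshold applied to all genes is given beside the share or number of all genes that did, and supports nothing. The list held 10 genes: Pdss1, Pdss2, Coq2, Coq3, Coq4, Coq5, Coq6, Coq7, Coq9 and Coq10b. Of these, 9 stood on a transcript cluster (the probes that an array reads as 1 gene) with that symbol alone, out of 30142 genes so matched. All 9 were among the 18091 genes kept for testing, which had mean log2 signals of at least 4.8. Pdss1 had no such cluster and was not analysed here.

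Coenzyme Q, or ubiquinone, is a lipid of the inner mitochondrial membrane that carries electrons from complexes I and II and from other dehydrogenases to complex III. Its isoprenoid tail is made from mevalonate pathway precursors by the Pdss1 and Pdss2 synthase, and Coq2 joins the tail to 4-hydroxybenzoate. A complex of COQ proteins on the mitochondrial membrane then modifies the ring: Coq3 and Coq5 add methyl groups, Coq6 and Coq7 add hydroxyl groups, and Coq4 and Coq9 are needed for the complex to work. Coq10b encodes a lipid-binding protein that is thought to bring coenzyme Q to its sites of action.

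Of the 30 blastocysts, 20 were monozygotic twins and 10 were undivided controls, with 1 blastocyst on each array. All came from B6C3F1 x CD1 matings after hormonal stimulation, were fertilised in the oviduct and spent the time up to the first cleavage in KSOM(aa), a culture medium for mouse embryos. The 10 embryos that gave twins were then bisected as 2-cell embryos, 1 blastomere of each went into GM501 and the sister blastomere into SAGE 1-Step, which are both media of assisted reproduction. The 10 controls were left whole and stayed in KSOM(aa), also 1 to a well. RNA was taken at 4 days post coitum, when embryos had spent 96 h in culture; a twin then had some 40 to 50 cells and a control some 80. Medium, bisection and cell number therefore differed together between twins and controls and cannot be told apart, nor can fewer cells of a type and less RNA per cell. The labels do not say how many females or culture days the embryos came from, so the spread behind each p-value is that among these embryos only.

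The sequences before the start sites of 3 of the genes are shown because Coq3 is the gene the list was built on, and because Coq7 and Coq10b had the largest gaps in signal between pairs 1 to 6 and pairs 7 to 10. Each holds the 250 bases before the gene's start in RefSeq (GRCm38.p6), written 5′ to 3′ along the gene's own strand, and capitals mark CCAAT and CACGTG on either strand. The Coq3 window lies at chr4:21879396-21879645 on the plus strand, that of Coq7 at chr7:118533357-118533606 on the minus strand and that of Coq10b at chr1:55052520-55052769 on the plus strand.
Coq3: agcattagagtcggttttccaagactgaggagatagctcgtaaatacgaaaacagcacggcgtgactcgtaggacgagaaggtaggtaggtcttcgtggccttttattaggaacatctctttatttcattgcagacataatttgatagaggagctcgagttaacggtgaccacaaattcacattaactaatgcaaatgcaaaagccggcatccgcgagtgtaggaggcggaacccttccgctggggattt
Coq7: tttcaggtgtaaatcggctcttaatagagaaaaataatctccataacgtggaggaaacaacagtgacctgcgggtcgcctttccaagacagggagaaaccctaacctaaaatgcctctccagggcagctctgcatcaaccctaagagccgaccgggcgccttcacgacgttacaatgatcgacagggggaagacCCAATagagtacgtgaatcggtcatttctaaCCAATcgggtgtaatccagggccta
Coq10b: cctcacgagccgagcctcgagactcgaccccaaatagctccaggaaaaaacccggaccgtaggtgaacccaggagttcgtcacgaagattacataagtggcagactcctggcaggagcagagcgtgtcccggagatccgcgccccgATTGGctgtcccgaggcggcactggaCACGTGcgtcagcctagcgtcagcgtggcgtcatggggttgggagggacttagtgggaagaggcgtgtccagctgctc
The Coq3 window held neither marked motif. The Coq7 window held CCAAT at 52 to 56 and at 21 to 25 bases before the start. The Coq10b window held CCAAT on the other strand at 100 to 104 bases, and the palindromic E-box CACGTG at 73 to 78 bases.

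Such windows were found for 9 of the 10 listed genes, 10 windows in all because Coq3 had a pair of starts; Coq5 was not in the table. On both strands, the motif of the nuclear respiratory factor NRF1 was in 3.74% of all 32851 windows and in none of the 10. The ETS motif CCGGAAG was in 6.91% of windows and in that of Pdss2. The SP1 motif GGGCGG was in 32.7% of windows and in those of Coq6, Coq9, Pdss2 and the second of Coq3. CCAAT was in 33.8% and in those of Coq6, Coq7 and Coq10b, and 1 of its matches in Coq6 shared bases with GGGCGG. The palindrome CACGTG was in 6.02% and in those of Coq4 and Coq10b. The sterol motif TCACNCCAC was in 1.05% and in that of Coq4. These matches are letters in a window, not measured binding.

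The arrays carried the transcripts of blastocyst lineages: Cdx2 of the trophectoderm had a mean log2 signal of 11.31 in twins from GM501, 11.06 in twins from SAGE and 11.78 in controls, and Gata6 of the primitive endoderm 11.8, 11.5 and 11.9. In the same order, Pou5f1 of the epiblast had 9.08, 8.63 and 9.77, and Nanog 12.9, 12.5 and 14.0. The mean level of 6 epiblast markers was 7.62, 7.26 and 7.96, and that of 5 measured primitive endoderm markers 8.95, 8.90 and 9.80. The mean level of 8 trophectoderm markers ran from 10.8 to 11.7 in GM501 twins, from 10.3 to 11.9 in SAGE twins and from 11.6 to 12.2 in controls. In pair means against controls 7 of these 8, 3 of 6 epiblast and 3 of 5 measured primitive endoderm markers were lower by limma at an adjusted p under 0.05, and none of any of the 3 lists in pairs 7 to 10. Over all genes 25.6% were called in pair means and 11.4% were lower, against 0.73% called in pairs 7 to 10. The list medians in pairs 7 to 10 were -0.30, -0.29 and -0.21, so the lack of calls there does not mean no change. Of 9 oocyte and cumulus markers 6 passed the filter on low signals, with a mean level over the list of 4.53 to 5.34 for GM501 twins, 4.67 to 5.21 for SAGE twins and 4.61 to 5.12 in controls. Of these 6, Gdf9 was called higher in pair means, at 0.49 ± 0.090 (SE, adjusted p = 0.00332, limma), 3 were called higher in pairs 1 to 6 and none in pairs 7 to 10. In pairs 1 to 6, 64.2% of all genes were called and 7619 of 18091 were higher, so nothing is read from these counts by set. Of 6 blood and oviduct markers 3 were matched and 2 passed the filter. Array medians were 5.01 (4.81 to 5.28) in the 12 twins of pairs 1 to 6 and 4.69 (4.57 to 5.12) in the 8 twins of pairs 7 to 10, against 4.64 ± 0.029 in controls (SD, n = 10). These sets of pairs were formed in earlier work from the array medians, controls included, and are no groups of the study; no label names a batch. The SAGE twin of pair 8 had the median of 5.12, and the other 7 twins of its set lay between 4.57 and 4.67. Values by set are therefore given beside those of all pairs, and the share of lineage markers and array medians in the results was not tested.

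Coq3, at chr4:21879646-21912163, encodes the methyltransferase that puts the O-linked methyl groups on the ring. In controls its log2 signal ran from 10.86 to 11.53, with a mean of 11.23 ± 0.23 (SD, n = 10). The GM501 twins of pairs 1 to 10 had 8.20, 9.85, 11.30, 9.40, 9.98, 9.94, 10.35, 10.55, 9.58 and 10.62. Their SAGE sisters had 10.13, 9.34, 11.50, 10.10, 10.84, 10.73, 10.39, 9.52, 10.59 and 9.77. All twins but both of pair 3 thus lay below the lowest control, 18 of 20, and so did all 8 of pairs 7 to 10. Over the genes tested, 0.182% had at least 18 of 20 twins below the lowest control and 0.188% had all 8 of pairs 7 to 10 there; Coq3 was chosen for this difference, so nothing is read from its place among them. Coq3 was 1.25 ± 0.26 log2 units below controls in GM501 twins and 0.94 ± 0.21 below in SAGE twins (SE, 10 against 10 arrays). In pair means it was 2.13-fold lower, with a 95% interval of the log2 difference from -1.50 to -0.69. The difference was -1.12 ± 0.24 in pairs 1 to 6 and -1.06 ± 0.13 in pairs 7 to 10 (SE). By medium, GM501 twins were at -1.45 ± 0.30 in pairs 1 to 6 and -0.95 ± 0.18 in pairs 7 to 10, while SAGE twins were at -0.79 ± 0.23 and -1.16 ± 0.19 (SE). Whether the sets differ in their distance from controls was not tested.

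**Figure D1:**
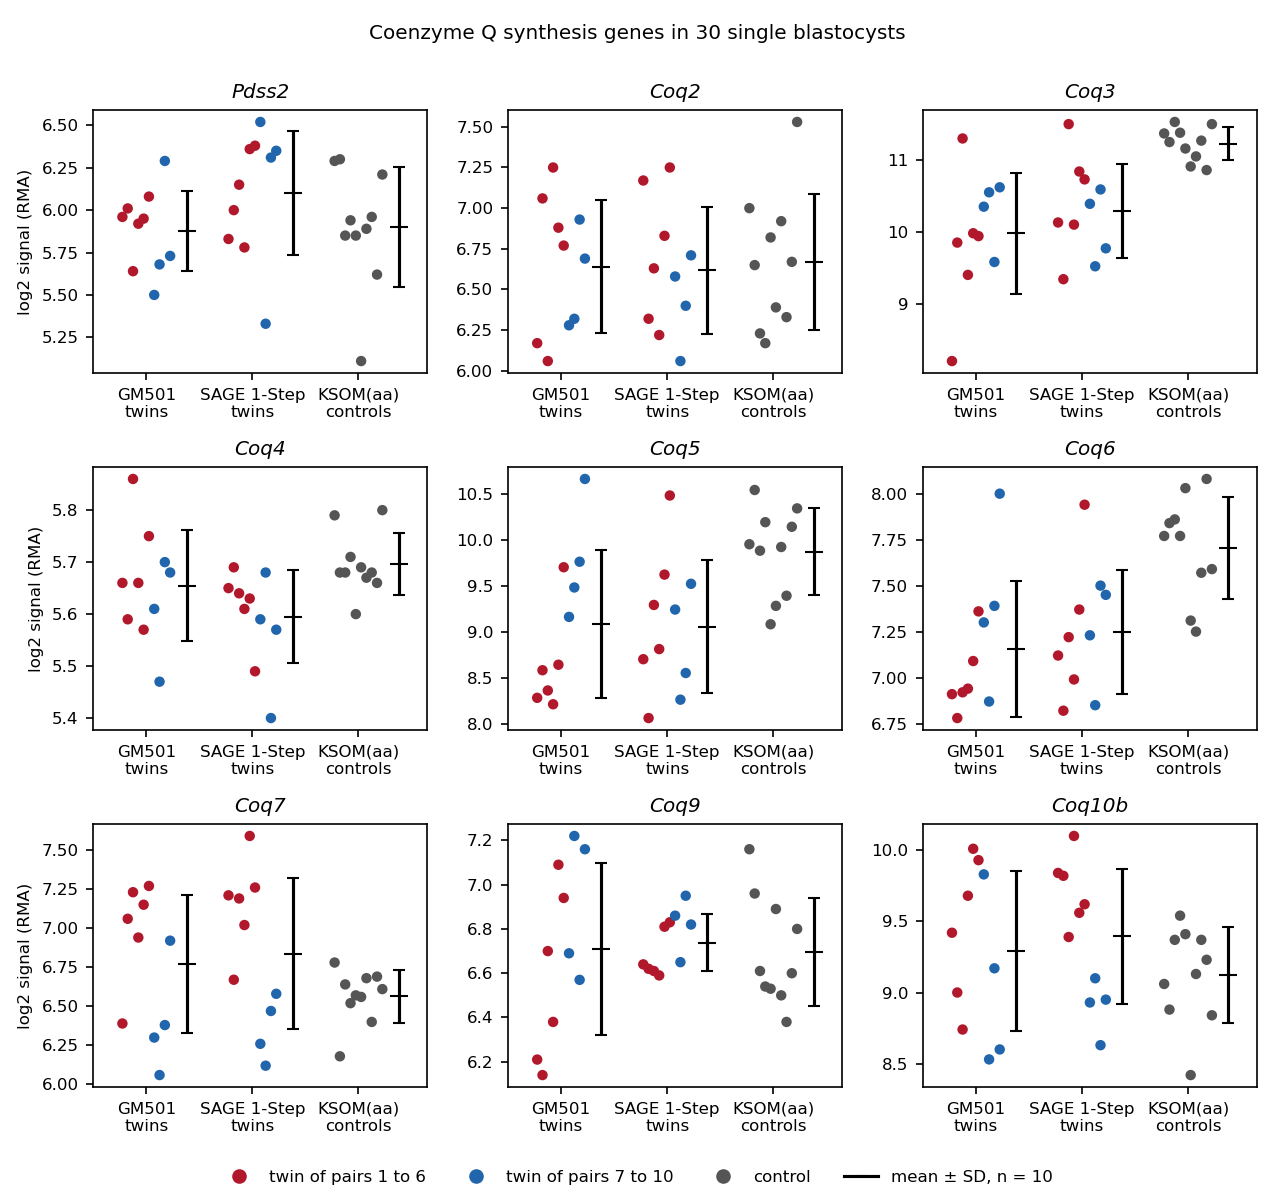
Log2 signal (RMA) of the 9 measured coenzyme Q genes in each of the 30 blastocysts, by group, with points for single arrays in order of pair or control number, red for pairs 1 to 6, blue for pairs 7 to 10 and grey for controls. Bars are mean ± SD (n = 10). Only in the panel of Coq3 do 18 of the 20 twins lie below every control.

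Coq5, at chr5:115279666-115296974, encodes the methyltransferase that puts the carbon-linked methyl group on the ring. Its log2 signal had a lowest, median and highest value of 8.21, 8.90 and 10.66 in GM501 twins, of 8.06, 9.03 and 10.48 in SAGE twins, and of 9.08, 9.94 and 10.54 in controls. The groups overlapped: 18 of 20 twins lay below the controls' median and 10 below the lowest control, 2 of those 10 in pairs 7 to 10. The difference from controls was -0.79 ± 0.28 in GM501 and -0.82 ± 0.26 in SAGE twins (SE), and -0.80 ± 0.23 in pair means, a 1.74-fold lower level. It was -0.98 ± 0.26 in pairs 1 to 6 and -0.54 ± 0.27 in pairs 7 to 10 (SE), or -0.39 ± 0.30 in pairs 7, 9 and 10. Within pairs 7 to 10 the GM501 twins were close to controls, at -0.11 ± 0.29, and the SAGE twins were at -0.98 ± 0.28 (SE).

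Coq6, at chr12:84361756-84373796, encodes a flavin-dependent hydroxylase of the ring. Its lowest, median and highest signals were 6.78, 7.02 and 8.00 for GM501 twins, 6.82, 7.23 and 7.94 for SAGE twins and 7.25, 7.77 and 8.08 in controls. Again 18 of 20 twins lay below the controls' median, and 12 lay below the lowest control, 3 of them in pairs 7 to 10. The difference from controls was -0.55 ± 0.15 for GM501, -0.46 ± 0.14 for SAGE and -0.50 ± 0.13 in pair means (SE), or 1.42-fold lower. Pairs 1 to 6 had a difference of -0.59 ± 0.14, pairs 7 to 10 one of -0.38 ± 0.17 (SE), and pairs 7, 9 and 10 one of -0.23.

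Coq7, at chr7:118509659-118533356, encodes the di-iron hydroxylase of the last but one step. Its signals ran from 6.06 to 7.27 in GM501 twins with a median of 6.93, from 6.12 to 7.59 in SAGE twins with a median of 6.85 and from 6.18 to 6.78 in controls with a median of 6.59. Of the 12 twins of pairs 1 to 6, 10 lay above the highest control, and of the 8 of pairs 7 to 10, 1 did. The mean was 7.08 ± 0.31 over the 12 twins of pairs 1 to 6 (SD) and 6.39 ± 0.28 over the 8 twins of pairs 7 to 10 (SD), on either side of the controls' 6.56 ± 0.17 (SD, n = 10). Pair means differed from controls by 0.24 ± 0.14 over all pairs. The difference was 0.52 ± 0.10 for pairs 1 to 6 and -0.18 ± 0.12 for the other 4 pairs (SE), which became -0.078 ± 0.13 in pairs 7, 9 and 10.

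Coq10b, at chr1:55052770-55072702, showed the same split. Its signals ran from 8.53 to 10.01 in GM501 twins with a median of 9.30, from 8.63 to 10.10 in SAGE twins with a median of 9.48 and from 8.42 to 9.54 in controls with a median of 9.18. Above the highest control lay 8 of 12 twins of pairs 1 to 6 and 1 of 8 of pairs 7 to 10. Pair means differed from controls by 0.22 ± 0.17 over all pairs, 0.47 ± 0.16 in pairs 1 to 6 and -0.16 ± 0.18 in pairs 7 to 10 (SE), and by -0.11 ± 0.21 in pairs 7, 9 and 10. After each array was centred on its own median, the difference of all pair means was -0.025 for Coq10b and -0.0020 for Coq7, so neither has a direction that holds across scalings.

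The other 4 genes had the smallest differences from controls in pair means as deposited. Pdss2, the second subunit of the tail synthase at chr10:43218248-43464882, ran from 5.50 to 6.29 among GM501 twins, 5.33 to 6.52 among SAGE twins and 5.11 to 6.30 in controls, with medians of 5.94, 6.23 and 5.92. Of the SAGE twins, 5 of 10 lay above the highest control, and none of the GM501 twins did. Coq2, which encodes the transferase that joins tail and ring at chr5:100654723-100674288, had medians of 6.73, 6.61 and 6.66 in GM501 twins, SAGE twins and controls. Its full ranges were 6.06 to 7.25 in both twin groups and 6.17 to 7.53 in controls, so the groups overlapped almost wholly. Coq4, at chr2:29787493-29797935, spanned 5.47 to 5.86, 5.40 to 5.69 and 5.60 to 5.80 in the same order, and 7 of 20 twins lay below the lowest control. Coq9, the lipid-binding partner of Coq7 at chr8:94838413-94854895, spanned 6.14 to 7.22, 6.59 to 6.95 and 6.38 to 7.16. Pair means differed from controls by -0.042 ± 0.15 for Coq2 and -0.071 ± 0.056 for Coq4 on the log2 scale (SE). The differences were 0.027 ± 0.11 for Coq9 and 0.086 ± 0.13 for Pdss2 (SE). After array centring these 4 genes were at -0.28, -0.31, -0.22 and -0.16 in the same order, so Coq9 and Pdss2 changed sign.

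**Figure D2:**
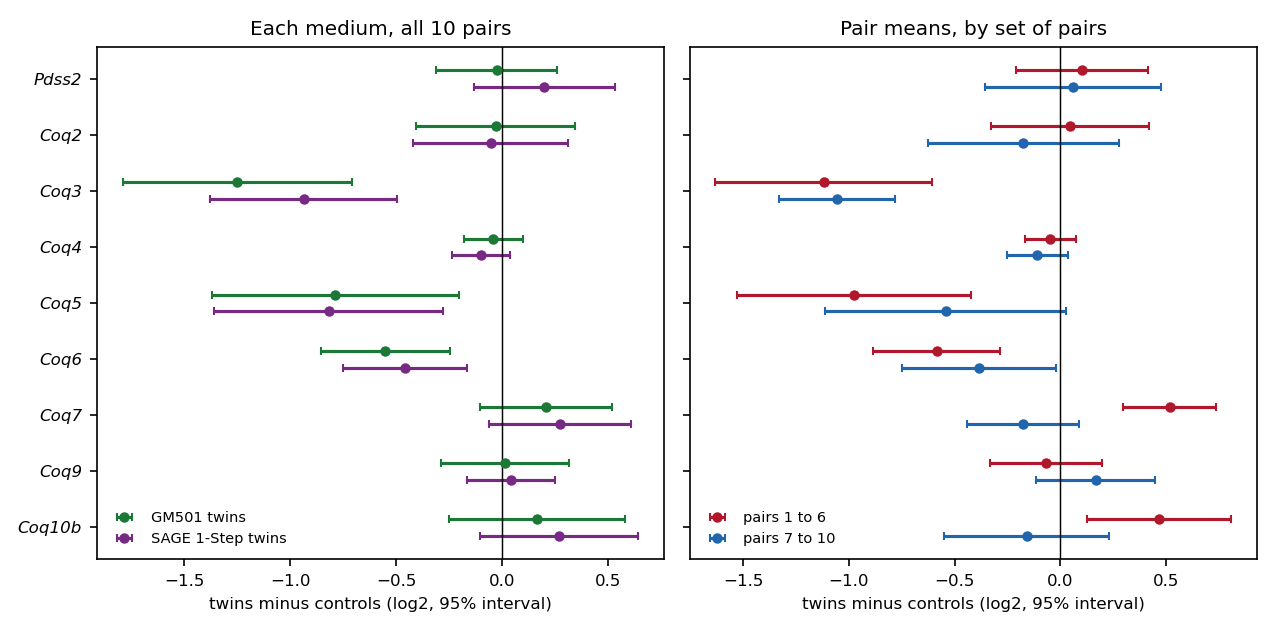
Difference of twins from controls (log2) for each gene, with points for the estimate and bars for limma's 95% interval; the left panel shows each medium over 10 pairs and the right panel pair means in pairs 1 to 6 and 7 to 10. The points of Coq3 lie between -1.25 and -0.94 in all 4 series, while those of Coq7 and Coq10b change side between the sets of pairs.

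The counts of called genes that follow, those in subsets of the pairs included, come from the contrasts and controls that chose the genes, so nothing is read from any of them. At an adjusted p under 0.05, 2 of the 9 genes, Coq3 and Coq6, were lower in GM501 twins, where 13.8% of all genes tested were called and 6.97% were called lower. In SAGE twins the 3 genes Coq3, Coq5 and Coq6 were lower (background 16.1% called, 8.63% lower), and in pair means the same 3 (25.6% called, 11.4% lower). Both media share the 10 control arrays. In pairs 7 to 10 alone Coq3 was the only one of the 9 called in GM501 twins (background 1.32%), in SAGE twins (0.813%) and in pair means (0.73%). In pairs 1 to 6 alone pair means had 3 genes lower and 2 higher, Coq7 and Coq10b (background 64.2% called, 22% lower). Without pair 8, Coq5 joined the called genes in GM501 twins, at -0.83 ± 0.29 (SE), where 4525 of 18091 genes were called. Coq5 left them in SAGE twins, at -0.73 ± 0.26 (SE), where 2887 were called. Coq4 was called lower in pair means after array centring, at -0.31 ± 0.072 (SE), where 23.5% of all genes were called and 21% were called lower. The median difference of the 9 genes in pair means was -0.042, against 0.11 over all genes tested; array centring moved the median of all genes to -0.13, and all 9 differences were then negative. The split of called genes moved with it, from 2562 higher and 2066 lower to 454 higher and 3802 lower in pair means, from 1232 and 1261 to 258 and 2285 in GM501 twins and from 1356 and 1562 to 260 and 3126 in SAGE twins.

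Co-twins share a genome and a first cleavage, so their comparison asks what the medium changed, and it was not used in choosing the genes. None of the 9 genes passed limma's test between GM501 and SAGE twins, all at an adjusted p of 1. Over all genes the same test called 0 of 18091 (0%), with 695 at an unadjusted p under 0.05. Coq3 was lower in the GM501 twin in 7 of 10 pairs, and GM501 minus SAGE was -0.31 ± 0.26 over all 10 (SE, 95% interval from -0.89 to 0.26). Its single pair differences ran from -1.93 in pair 1 to 1.03 in pair 8. Pdss2 differed by -0.23 ± 0.13 (-0.52 to 0.067) and was lower in GM501 in 6 of 10 pairs. Coq6 differed by -0.093 ± 0.11 (-0.32 to 0.14), lower in 7 of 10. Coq5 differed by 0.030 ± 0.26 (-0.53 to 0.59), with pair differences from -0.98 to 1.22. The intervals of Coq2, Coq7, Coq9 and Coq10b ran from -0.38 to 0.43, -0.32 to 0.19, -0.29 to 0.23 and -0.49 to 0.28, and that of Coq4 from -0.12 to 0.24. Differences of those sizes are therefore not excluded for any of the 9.

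Among the 9 genes, the difference between GM501 and SAGE co-twins changed most between the sets of pairs in Coq5. The GM501 twin was lower in Coq5 by 0.53 on average in pairs 1 to 6 and higher by 0.87 in pairs 7 to 10. The difference between the sets, 1.40 ± 0.35 (SE), had an unadjusted p of 0.00216 by limma and an adjusted p of 0.562 over all genes, where no gene was called and 1423 had an unadjusted p under 0.05. For Coq3 the difference between sets was 0.87 ± 0.49 (SE, adjusted p = 0.670, limma).

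**Figure D3:**
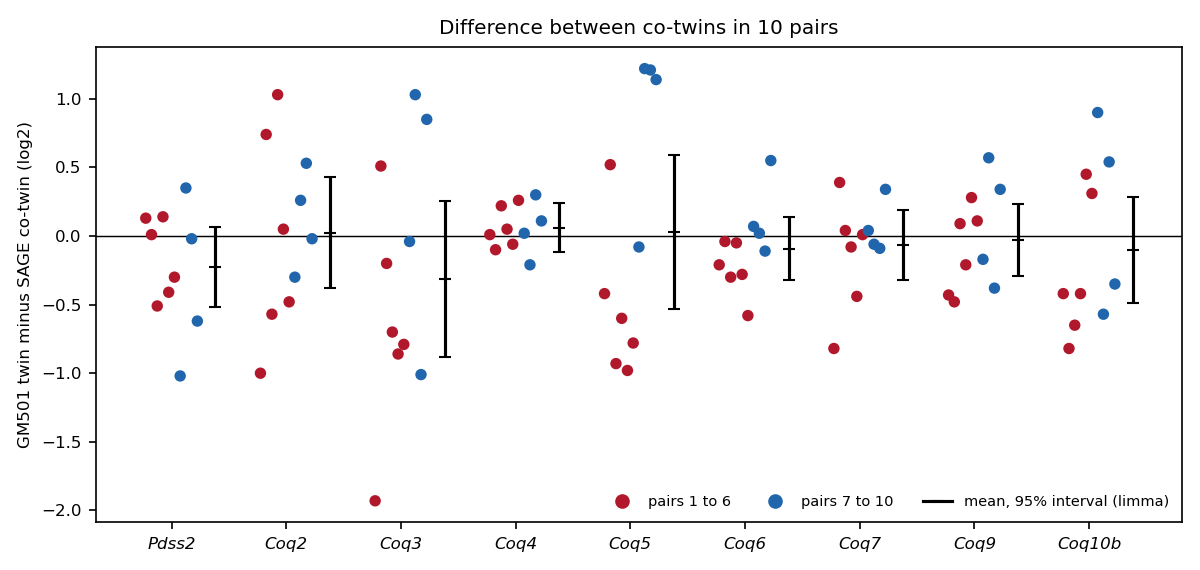
GM501 twin minus SAGE co-twin (log2) for each gene, 1 point per pair in order of pair number, red for pairs 1 to 6 and blue for pairs 7 to 10, with limma's mean and 95% interval in black (10 pairs). Every interval includes 0, and the points of Coq3 spread from -1.93 to 1.03.

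Whether co-twins resemble each other was asked by limma's F test for embryo of origin, in a model that also held the medium. Coq7 was the only one of the 9 genes to pass (F = 5.33, adjusted p = 0.0255), with 26.4% of all genes passing. Its co-twins differed by 0.23 log2 units on average, and its pair means had an SD of 0.43, from 6.09 in pair 8 to 7.37 in pair 5. The call was lost without pair 8 (adjusted p = 0.0573, limma) and with arrays centred (adjusted p = 0.117), and it was not made in pairs 1 to 6 (adjusted p = 0.685, where 0.243% of all genes passed) or in pairs 7 to 10 (adjusted p = 0.623, where 0.0663% passed). Coq6 came next (F = 3.68, adjusted p = 0.0634) and passed with arrays centred (adjusted p = 0.0228, limma; 21.1% of all genes passed). Its co-twins differed by 0.22 on average, with an SD of pair means of 0.32. For the remaining 7 genes the adjusted p by limma ran from 0.165 for Coq10b to 0.994 for Coq4.

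For Coq3 no resemblance of co-twins was detected over all 10 pairs (F = 2.05, adjusted p = 0.211, limma). Its co-twins differed by 0.79 log2 units on average, and the SD of its pair means was 0.59, from 9.17 in pair 1 to 11.40 in pair 3. With partners exchanged at random the mean difference was 0.82, and a one-sided permutation test gave p = 0.397 (100000 resamples). In pairs 1 to 6 the co-twin difference was 0.83 against 1.06 over re-pairings (exact one-sided p = 0.133 over 720 pairings), and limma's F was 5.17 (unadjusted p = 0.0226, adjusted p = 0.357). The other 4 pairs had a difference of 0.73 against 0.50 over re-pairings (exact one-sided p = 1.0 over 24 pairings), and F was 0.17 (adjusted p = 0.963, limma). The twins' SD of Coq3 was 3.61 times the controls' in GM501 and 2.84 times in SAGE, where the median ratio over all genes was 1.78 and 1.83. Coq7 had ratios of 2.60 and 2.85. Those of Pdss2 were 0.67 and 1.04, and those of Coq9 1.59 and 0.53, so not every gene spread more in twins.

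**Figure D4:**
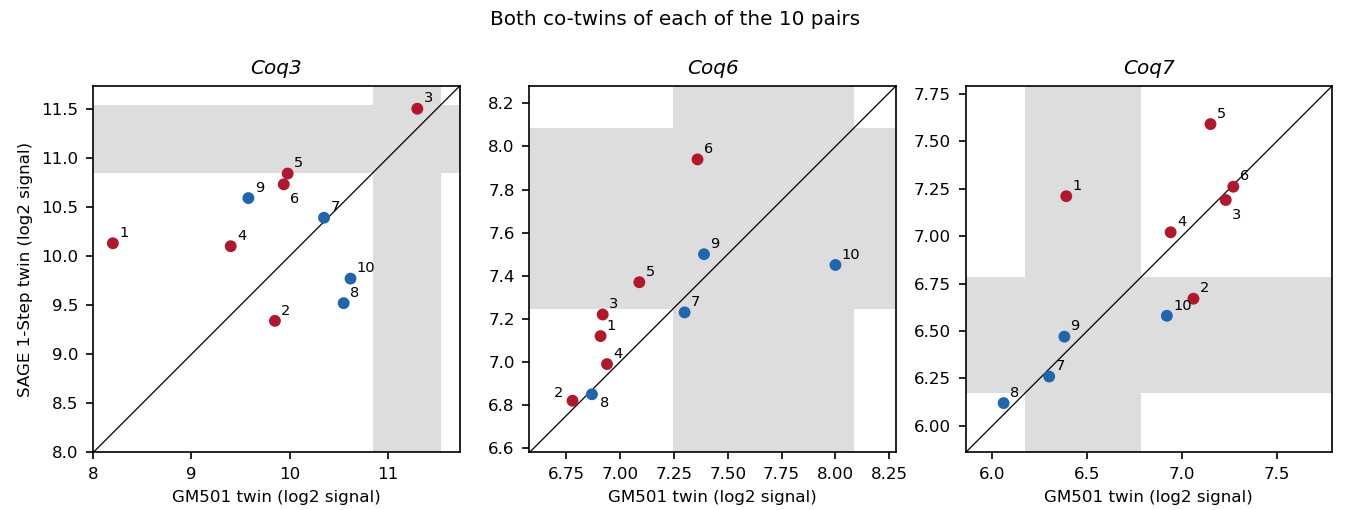
Log2 signal of the GM501 twin (x axis) against its SAGE 1-Step co-twin (y axis) for Coq3, Coq6 and Coq7, 1 point per pair with its pair number, red for pairs 1 to 6 and blue for pairs 7 to 10. The line marks equality and the grey bands the range of the 10 controls; for Coq3, pair 3 alone has both twins inside the bands.

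Likeness among the genes was described over the 30 arrays, with each gene centred within its group, and all arrays enter every value. Over the 36 pairs of the 9 genes Pearson's r had a median of 0.12 and ran from -0.34 for Coq9 with Coq10b to 0.71 for Coq5 with Coq6. Coq3 had its highest values with Coq9 (0.43), Coq5 (0.42), Coq7 (0.36) and Coq6 (0.32), and its lowest with Coq10b (-0.23). Within single groups the order was another: in controls Coq3 had its highest r with Pdss2 (0.68) and Coq4 (0.52). Pdss2, at 0.10 over all arrays, had r of -0.57 with Coq3 in GM501 twins and 0.50 in SAGE twins. Over all genes the median r with Coq3 was 0.0080. The 5 genes most like Coq3 were Lrrc40 (0.75), the RNA helicase gene Ddx39a (0.73), Cnot9 of the deadenylase complex (0.73), the telomere gene Tinf2 (0.72) and Wdr48 (0.71). Within controls alone these 5 had r of 0.33, 0.46, -0.14, 0.044 and 0.38 with Coq3. They had 0.86, 0.81, 0.89, 0.76 and 0.92 within GM501 twins, and 0.68, 0.70, 0.49, 0.78 and 0.53 within SAGE twins. The genes were picked on all arrays together, so nothing is read from the order of the 3 groups.

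Of the genes near Coq3 on chromosome 4, 3 were tested, and none passed in pair means of all 10 pairs. Usp45, which encodes a deubiquitinase 41.8 kb from Coq3, differed by 0.035 ± 0.16 (SE, adjusted p = 0.877, limma). Ccnc, the cyclin of the Mediator kinase 120 kb away, differed by 0.36 ± 0.16 (adjusted p = 0.0885, limma), and Fbxl4, 445 kb away, by 0.042 ± 0.15 (adjusted p = 0.843, limma). Faxc, 18.7 kb away, and Prdm13 lay below the filter on low signals, with group means of at most 4.39 and 3.69. Pnisr, 3.17 kb away, had no cluster with its symbol alone. Tstd3, 112 kb away, had a cluster with its symbol alone but was not on the list of neighbours. In pairs 7 to 10 Usp45, Ccnc and Fbxl4 differed by 0.063, -0.043 and -0.0083, with none called, where 0.73% of all genes were called. Ccnc alone was called higher in pairs 1 to 6, at 0.62 ± 0.12 (SE, adjusted p = 0.000388, limma), where 64.2% of all genes were called.

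Of 7 measured genes that make the isoprenoid precursors of the coenzyme Q tail, 3 were called higher in pair means and none lower. Of all genes 25.6% were called, and 2562 of 18091 were higher. The median of the 7 was 0.47, against 0.11 over all genes. With arrays centred, 2 were called higher and the median was 0.23, against -0.13, where 454 of 18091 genes were called higher. Like the other lists, this one was chosen with earlier results of these data known, so its counts and p-values are a description. Idi1, the isomerase of the isoprene unit, rose by 1.88 ± 0.23 (SE, adjusted p = 0.000184, limma), and Fdps, the farnesyl diphosphate synthase, by 1.11 ± 0.16 (adjusted p = 0.000665, limma). Mvk, the mevalonate kinase, rose by 0.88 ± 0.25 (adjusted p = 0.0211, limma; 0.128 with arrays centred). In pairs 7 to 10 the 3 differences were 1.77, 1.21 and 1.64 log2 units, all called, where 0.73% of all genes were called. The first 6 pairs gave 1.96, 1.04 and 0.38, and Mvk was not called (adjusted p = 0.0722, limma). Ggps1, the geranylgeranyl diphosphate synthase, differed by 0.18 ± 0.21 (adjusted p = 0.507, limma). Its values, named after they were seen, split by set. Pairs 1 to 6 gave 0.51 ± 0.21 (adjusted p = 0.0426, limma), where Ggps1 was called, as were 64.2% of all genes. The other 4 pairs gave -0.31 ± 0.22 (adjusted p = 0.615, limma).

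None of 8 measured accessory genes of coenzyme Q passed the test in pair means, with a median of -0.10. Coq8a and Coq8b, atypical kinases of the synthesis complex, differed by 0.043 ± 0.094 (adjusted p = 0.736, limma) and -0.16 ± 0.13 (adjusted p = 0.333, limma). Coq10a, the paralogue of Coq10b, differed by 0.12 ± 0.23 (adjusted p = 0.690, limma). With arrays centred 3 of the 8, Adck2, Hpdl and Stard7, were called lower, where 23.5% of all genes were called and 21% were lower. In pairs 1 to 6, where 64.2% of all genes were called, Fdx1, a ferredoxin, was higher by 0.90 ± 0.18 (adjusted p = 0.000401, limma), and Hpdl and Stard7 were lower, at -0.66 ± 0.16 and -0.46 ± 0.14 (SE). The other 4 pairs, where 0.73% of all genes were called, gave no call among the 8.

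The next 3 lists had called shares that lay on either side of the 25.6% of all genes called in pair means (11.4% lower). The counts are therefore not a result about the lists. In pairs 1 to 6, 64.2% of all genes were called and 22% were lower, and in pairs 7 to 10, 0.73% were called. Nothing is read from calls, or their lack, by set. Of 11 measured genes whose enzymes reduce ubiquinone, 2 fell and none rose, with a median of -0.059; 4 were lower with arrays centred. Sdha, the flavoprotein of succinate dehydrogenase, fell by 0.85 ± 0.19 (adjusted p = 0.00790, limma), and Chdh, the choline dehydrogenase, by 0.39 ± 0.13 (adjusted p = 0.0400, limma). In pairs 7 to 10 these 2 differed by -0.30 and -0.18 and were not called. Sdhb, named after its values were seen, was called there, at -0.48 ± 0.10 (adjusted p = 0.0494, limma). The list in pairs 1 to 6 had 2 genes higher and 2 lower, with a median of 0.17. Of 9 genes of complex III, which oxidises ubiquinol, Uqcrc1 fell by 1.07 ± 0.25 (adjusted p = 0.00957, limma) and Uqcrh rose by 0.65 ± 0.19 (adjusted p = 0.0232, limma; 0.0614 with arrays centred). In pairs 7 to 10 no gene of complex III was called, and Uqcrc1 differed by -0.38. Of the 9, 5 were higher in pairs 1 to 6 and 2 lower, with a median of 0.45, and with arrays centred none was higher and 2 were lower. Of 10 genes of mitochondrial biogenesis, 3 fell: the transcription factor subunit Gabpa by 0.51 ± 0.13 (adjusted p = 0.0141, limma), the coactivator Ppargc1b by 0.50 ± 0.16 (adjusted p = 0.0309, limma) and the mitochondrial RNA polymerase Polrmt by 0.28 ± 0.089 (adjusted p = 0.0311, limma). Of these 10, 1 was higher and 4 were lower in pairs 1 to 6, and no call was made in pairs 7 to 10. Between GM501 and SAGE twins no gene of these 5 lists was called.

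**Figure D5:**
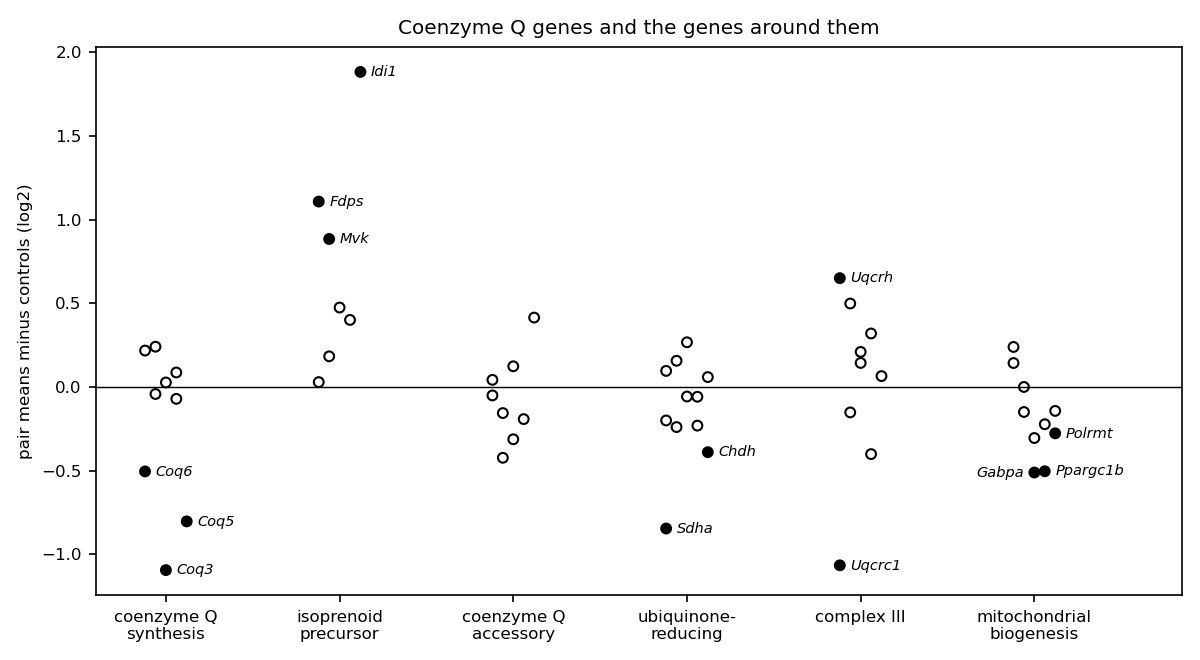
Pair means minus controls (log2) for the coenzyme Q genes and for each measured gene of 5 lists around them, with filled points for genes called at an adjusted p under 0.05 (named) and open points for the others. Idi1, Fdps and Mvk stand above 0.8, and Coq3 and Uqcrc1 below -1. Nothing is read from the filled points of the coenzyme Q genes, which were chosen on the contrast with controls.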

How the data were processed

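The authors deposited log2 signals of 65956 transcript clusters per array, made by RMA in Affymetrix Expression Console on mm10, per the submitters' processing notes; versions are not given in the sources used here. The RMA method is meant to set all arrays to a common scale, and it gives relative signals within a cluster. Medians of the deposited arrays still ran from 4.57 to 5.28 in twins and from 4.59 to 4.69 in controls. No label states the log base; it was taken from the values. RNA was amplified and labelled with the GeneChip WT Pico kit, per the labels' protocols. Precision is limited by how many arrays there are.

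Of 32750 clusters with a listed gene, 30604 had 1 symbol. Each gene was taken from its cluster with the highest mean, and the upper 60% of genes by mean were kept. Groups came from the titles. Tests used limma 3.58.1 in R 4.3.3 (two-sided, Benjamini-Hochberg over 18091 genes), with the pair as a block between media. Co-twins share an embryo, per the labels; with genes centred within media, their r ran from 0.163 to 0.696, and 7 of 10 correlated best with their own partner. The fits were tested on simulated data: of genes changed by 1 log2 unit between media, 60% were recovered, and 86% in pair means. The simulated arrays held no likeness of co-twins and gave each gene the same spread in all groups, unlike the real arrays. The rates therefore check the fits and are not the power of the tests in these data. Alternatives were no filter, trend and robust moderation, array centring, sets of pairs, pair 8 left out, mean of clusters and the block. Pairs 7, 9 and 10 alone and the test between sets were added after seeing the data.

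All 10 genes of the family were to be named, with up to 4 called genes of each pathway list, Coq8a, Coq8b and Coq10a, the neighbours of Coq3 and the 5 genes most like it. Adck2, Hpdl, Stard7, Fdx1, Sdhb, Ggps1 and Gdf9 were named after their values were seen. Members and lists were chosen with earlier results of these data known.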

Additional observations from a re-analysis of the deposited data

Results flagged for a closer look

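Coq6 in GM501 twins was 8.00 log2 units in pair 10, apart from the other 9 twins of that medium, of which the next highest had 7.39. Its SAGE co-twin had 7.45. The gap exceeded Dixon's 95% critical value for 10 samples. It was the only 1 of 27 combinations of gene and group that did so. Chance flags about 1 in every 20 combinations, so 1 flag among 27 is about what chance gives.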

How the results depend on the processing

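Coq3, Coq5 and Coq6 kept their sign against controls in both media and in pair means under every alternative run, but not their size: in pairs 7, 9 and 10, Coq5 in GM501 twins was at -0.011 ± 0.33 (SE) and Coq6 at -0.14. The count of genes called in GM501 twins, 2493, was 5757 without the filter on low signals, 10743 for pairs 1 to 6, 239 for pairs 7 to 10, 75 for pairs 7, 9 and 10, and 4525 without pair 8. In SAGE twins the 2918 became 7911, 10643, 147 and 124 in the first 4 of these, and in pair means the 4628 became 12409, 11606, 132 and 40. The 4779 genes called by embryo of origin became 44, 12 and 10 with those same sets of pairs. The sets hold fewer pairs; otherwise the cause was not tested.

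The numbers of the controls pair nothing with the twins (r from -0.201 to 0.136). With the number as a replicate block, 1373 genes were called for GM501, 1916 for SAGE and 3330 for pair means. Among the 9 coenzyme Q genes the call of Coq6 in GM501 twins and those of Coq5 and Coq6 in SAGE twins were lost. Without the block of pairs, the media differed in 0 genes by limma and in 225 at an unadjusted p under 0.05.

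GM501 minus SAGE changed sign in 12 of 81 values. In pairs 7 to 10 these were Coq3 at 0.21, Coq6 at 0.13, Coq7 at 0.058, Coq9 at 0.090 and Coq10b at 0.13. In pairs 7, 9 and 10 they were Coq6 at 0.17, Coq7 at 0.097 and Coq10b at 0.36. In pairs 1 to 6 they were Coq2 at -0.038 and Coq5 at -0.53, and without pair 8 Coq2 at -0.0022 and Coq5 at -0.10.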
